A study of Mus musculus with 16 samples.

Results

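The genes described here encode the proteins of the cytosolic ribosome in mouse embryonic stem (ES) cells. They were taken by symbol, as every gene named Rpl or Rps followed by a number together with Rplp0, Rplp1, Rplp2 and Rpsa, without the S6 kinase genes and without Rps27l and Rpl10l, and 138 of the 22375 genes in the count tables met this rule. Of these, 76 were core genes, 45 of the large and 31 of the small subunit, 6 were coding paralogues (Rpl3l, Rpl7l1, Rpl22l1, Rpl36al, Rpl39l and Rps4y2), 1 was Rps19bp1, which encodes a binding partner of Rps19 and not a ribosomal protein, and 55 carried a pseudogene symbol. Rpl41 was not analysed here. All 76 core genes passed the filter on low counts, as did the 6 paralogues, Rps19bp1 and 27 of the 55 pseudogenes, so 110 of the 138 genes were among the 15758 genes tested and 28 were not.

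Total RNA depleted of ribosomal RNA was sequenced from WT ES cells (E14TG2a, strain 129/OLA) and from Cfp1-/- ES cells of the same strain label, each untreated or treated with doxorubicin for 6 hours. Each of the 4 groups held 2 biological replicates (n = 2 throughout), and each of these was sequenced in 2 technical replicates, called runs here. Doxorubicin damages DNA and was given at 1 μM by the methods, while the treatment label reads 1 mM. Each genotype was 1 ES line, so the deletion and any other difference between the lines cannot be told apart, and nothing in the labels says whether replicates were separate cultures, so p-values measure the spread between these samples, which may be technical.

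Library totals ran from 14880589 to 29422711 counts, and core genes from 575 raw counts (Rpl29) to 87254. Cxxc1, which encodes Cfp1, had 1412 and 1117 raw counts in untreated WT and 616 and 829 in treated WT replicates, against 4 and 3 in untreated and 5 and 1 in treated Cfp1-/- replicates. The second runs of the treated replicates 1 stood apart. Core genes were higher there than in the first run relative to the median gene, by a median log2 ratio of 0.30 in WT and 0.27 in Cfp1-/- cells, against 0.01 to 0.02 in the other 6 replicates. In the Cfp1-/- one, X-linked genes other than core genes kept 0.0262 second-run counts per first-run count, against 0.518 over all genes, and values without these second runs are also given below for the core gene counts, the gene lists that changed and the members that had lost reads. Of the marker lists, the summed level of 10 ES cell markers was 71730 to 97950 normalized counts in untreated WT and 84120 to 85120 in untreated Cfp1-/- cells, and 27610 to 37770 and 32390 to 40260 after treatment, so the treated cells carried less marker RNA in both genotypes. Of the other germ-layer lists, 6 tested endoderm markers summed to 3181 to 4088 in untreated WT and 10350 to 12610 in untreated Cfp1-/- cells, with Dab2 and Ttr at or under 3 counts in every library. Nearly all of that sum was Sparc (3044 and 3873 against 12236 and 10188), which with Afp (0 and 0 against 4.64 and 5.07) made up the 2 of 6 called higher, while Gata4 had 20.4 and 11.5 against 5.56 and 5.92 and did not pass the test. The 6 neural markers summed to 4396 to 5328 and 1345 to 2271, the 4 tested trophectoderm markers to 1906 to 4413 and 408 to 586, the 7 mesoderm markers to 353 to 473 and 304 to 622, and the 6 tested fibroblast markers to 222 to 242 and 74.2 to 83.7. The trophectoderm sum was mostly Krt8 and Krt18, both called lower, while Elf5 was called higher (0.849 and 0 against 31.5 and 9.30). Untreated, 3 neural, 1 mesoderm and 3 fibroblast markers were called lower and 0 higher. Of the 10 ES cell markers 3 were called higher, among them Nanog and Fgf4, and 3 lower, among them Zfp42 and Pou5f1. Sums can thus hide members that differ in direction. Their part in the results below was not tested, and in these bulk samples fewer cells of a type and less RNA per cell cannot be told apart.

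A cytosolic ribosome is built in the nucleolus from ribosomal RNA and one copy of most ribosomal proteins, so their genes are kept at high and closely matched levels in growing cells. Their mRNAs begin with a run of pyrimidines, the 5′ terminal oligopyrimidine (TOP) motif, through which the mTOR pathway controls their translation. When ribosome assembly fails, free Rpl5 and Rpl11 with the 5S ribosomal RNA bind Mdm2, the inhibitor of p53, which ties these genes to the p53 response that doxorubicin starts. Cfp1 binds unmethylated CpG dinucleotides and brings the Set1 enzymes, which place trimethylation on lysine 4 of histone H3, to CpG-rich promoters of active genes. The comparisons asked how far the levels of these genes depended on Cfp1 and on doxorubicin, and whether the response to doxorubicin differed without Cfp1.

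The core genes were among the most abundant RNAs of untreated WT cells. On the scale of normalized counts per kb of exon, their median level was 6561 against 92.3 for all tested genes, and all 76 lay in the upper 10% of tested genes. The highest were Rpl4, with 52330 ± 302 (SD, n = 2), Rplp1 of the ribosomal stalk with 38850 ± 2410, Rps12 with 38570 ± 5635, Rpl32 with 35980 ± 1406 and Rps24 with 29740 ± 549. Rplp1, Rps12 and Rpl32 did not differ from each other beyond their SDs. The lowest were Rpl29 (1145 ± 176), Rpl39 (1444 ± 5.74), Rpl27 (1579 ± 272), Rps15a (1658 ± 91.2) and Rpl24 (1678 ± 66.3), and Rpl29 lay below Rpl39 by more than their SDs. Rpl39 and Rpl27, Rpl27 and Rps15a, and Rps15a and Rpl24 did not differ beyond theirs. This order at the low end depended on the length used, since the union of exons of Rpl24 spans 6029 bases and its coding transcript 556, and per kb of that transcript Rpl24 stood at 18190 and rank 31. Rpl29 remained the lowest per kb of transcript, at 1283. Core genes were short, with a median of 1500 exonic bases and a span of 3238 bases, against 3534 and 22720 bases for all tested genes.

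Core genes took a smaller share of the RNA in Cfp1-/- cells. They held 4.09% and 4.42% of all counts in the untreated WT replicates and 2.74% and 3.21% in the untreated Cfp1-/- replicates. After doxorubicin they held 4.75% and 5.11% in WT and 3.35% and 3.40% in Cfp1-/- cells. The genotypes did not overlap within either treatment. The mean difference was -1.42 percentage points (-1.28 untreated and -1.56 treated), with an exact two-sided permutation p = 0.0556 when genotype was exchanged within each treatment, the smallest p that its 36 arrangements can give. Within 1 treatment an exact permutation test of 2 against 2 cannot go below p = 0.333. Between the runs of treated replicates 1 the share itself moved from 4.39% to 5.38% in WT and from 3.13% to 3.78% in Cfp1-/- cells, while the runs of the other replicates differed far less. The counts on large-subunit genes stood to those on small-subunit genes as 1.65 and 1.65 to 1 in untreated and 1.68 and 1.60 in treated WT replicates. In Cfp1-/- replicates the ratios were 1.79 and 1.75 untreated and 1.79 and 1.74 treated. With the runs summed the ratio was thus higher in every Cfp1-/- replicate. In treated Cfp1-/- replicate 1 the second run, which had lost reads, raised it. There large- and small-subunit genes held 2.497% and 1.284% of counts, against 1.971% and 1.157% in the first run.

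**Figure D1:**
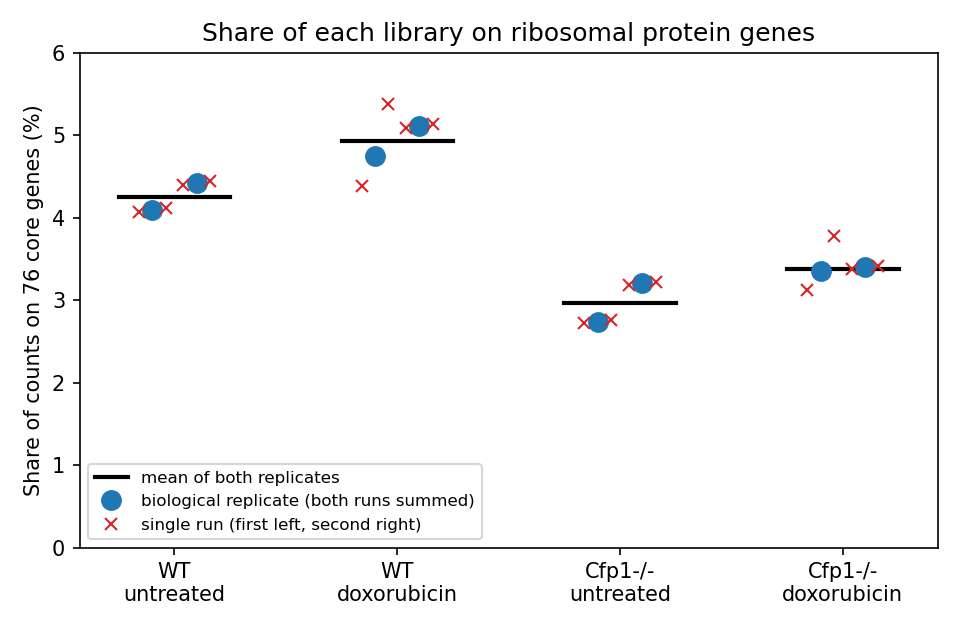
Share of all counts (percent, vertical axis from 0) that fell on the 76 core ribosomal protein genes in each biological replicate (blue points) and each of its runs (red crosses), by group, with black lines at the group means. All 4 Cfp1-/- replicates lie at 2.74% to 3.40% and all 4 WT replicates at 4.09% to 5.11%, and the runs of the treated replicates 1 lie far apart.

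Most core genes were lower in untreated Cfp1-/- than in untreated WT cells. Of 76, 58 were lower and 2 higher (edgeR adjusted p under 0.05), where 34.0% of all tested genes were called, 16.1% lower and 17.9% higher. Their median log2 fold change was -0.73, a 1.66-fold lower level, against 0.01 over all tested genes. Both subunits took part, with 34 of 45 large-subunit genes lower and 1 higher (median -0.73) and 24 of 31 small-subunit genes lower and 1 higher (median -0.73). The changes were moderate. Only 13 genes were lower by 2-fold or more, and at the limits of the study's methods, a 2.5-fold change and a mean of 200 counts, 2 core genes were lower and 1 was higher. Scaling by total counts moved the median of all genes in this comparison by 0.19 on the log2 scale. With it 49 core genes were lower and 5 higher, with a median of -0.54, where 1610 of 15758 tested genes were lower and 3849 higher. The distance of the core median from that of all genes was -0.73 under both scalings.

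The largest falls were spread over both subunits. Rps20, a small-subunit protein that contacts 18S ribosomal RNA in the head and can bind Mdm2, had 24100 and 24451 normalized counts in WT and 7584 and 8834 in Cfp1-/- cells, a log2 fold change of -1.54 (SE 0.127, edgeR adjusted p = 8.01e-05). Rps4x, an X-linked small-subunit protein, had 26520 and 26136 against 8387 and 10192 (log2 fold change -1.48, SE 0.133, edgeR adjusted p = 0.000115). No Cfp1-/- replicate came near a WT replicate for either gene. Rpl12, at the base of the stalk that recruits translation factors, had 22626 and 23470 against 8429 and 10238 (-1.28, SE 0.143). Rpl10, the X-linked protein whose late loading completes the large subunit, had 9819 and 10773 against 3919 and 4581 (-1.25, SE 0.126). For Rpl9, another stalk-base protein, the counts were 11406 and 13997 against 4639 and 5901 (-1.24, SE 0.163, the largest edgeR adjusted p of these 5 at 0.000676). The falls of all 5 exceeded 2-fold. Their groups were apart by the rule for naming genes, as were those of 11008 of the 15758 tested genes.

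Rpl29 and Rps3a went the other way. Rpl29, a small large-subunit protein dispensable for life in mice, had 812 and 1010 normalized counts in WT and 2808 and 2629 in Cfp1-/- cells (log2 fold change 1.61, SE 0.174, edgeR adjusted p = 0.000269). Rps3a, a small-subunit protein at the mRNA exit side, had 4255 and 4578 against 9180 and 11765 (1.27, SE 0.188, edgeR adjusted p = 0.00118). Both were higher in every Cfp1-/- replicate than in any WT replicate, treated or not. Ribosomal protein genes have many processed copies in the genome, and the assignment of reads between a gene and its copies is uncertain. The coding sequence of Rpl29 matched 97 other places of the genome at 90% identity or more, 38 of them at 95% or more, and that of Rps3a matched 7. Only 4 core genes, Rpl8, Rpl13a and Rps3 among them, matched no other place, and in each genotype comparison 3 of these 4 were lower (2 in treated cells without the second runs). Of the 37 genes with 1 to 10 such places 29 were lower, and of the 35 with more than 10 places 26 were lower, untreated.

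Similar differences were measured between doxorubicin-treated cells, in other libraries. Whether these came from the same cultures as the untreated ones is not stated in the labels. There 57 core genes were lower and 4 higher, where 25.9% of tested genes were called, 10.8% lower and 15.1% higher, and the median log2 fold change was -0.72 against 0.02 over all tested genes. Without replicate 2 of treated Cfp1-/- cells, 35 were lower, and without replicate 2 of treated WT cells 38 were. Without the second runs of treated replicates 1 the counts were again 57 lower and 4 higher, with a median of -0.71. Of the core genes 56 were lower and 2 higher, Rpl29 and Rps3a, in both comparisons. Rps23 and Rps27a were lower only in the untreated comparison and Rpl28 only in the treated one, and the difference between comparisons did not pass the test for any of them. Genes are no independent replicates, but across the 76 core genes the log2 fold changes of both comparisons correlated with Pearson's r of 0.94 and Spearman's rho of 0.87. The largest falls were those of Rps4x (24244 and 24688 in WT against 9247 and 8518, log2 fold change -1.44), Rpl10 (-1.23), Rps20 (-1.21), Rpl6 (-1.19) and Rps28 (-1.14), all with an edgeR adjusted p of 0.000892 or less. Besides Rps3a (1.63) and Rpl29 (1.66), Rpl34 was higher, with 2841 and 3422 in WT and 4633 and 4563 in Cfp1-/- cells (0.58, SE 0.155, edgeR adjusted p = 0.0234), as was Rpl19, with 14746 and 14599 against 19953 and 17821 (0.39, SE 0.124, edgeR adjusted p = 0.0446). The call of Rpl19 was lost with DESeq2's size factors, without the filter on low counts and in the fit of the compared groups alone.

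**Figure D2:**
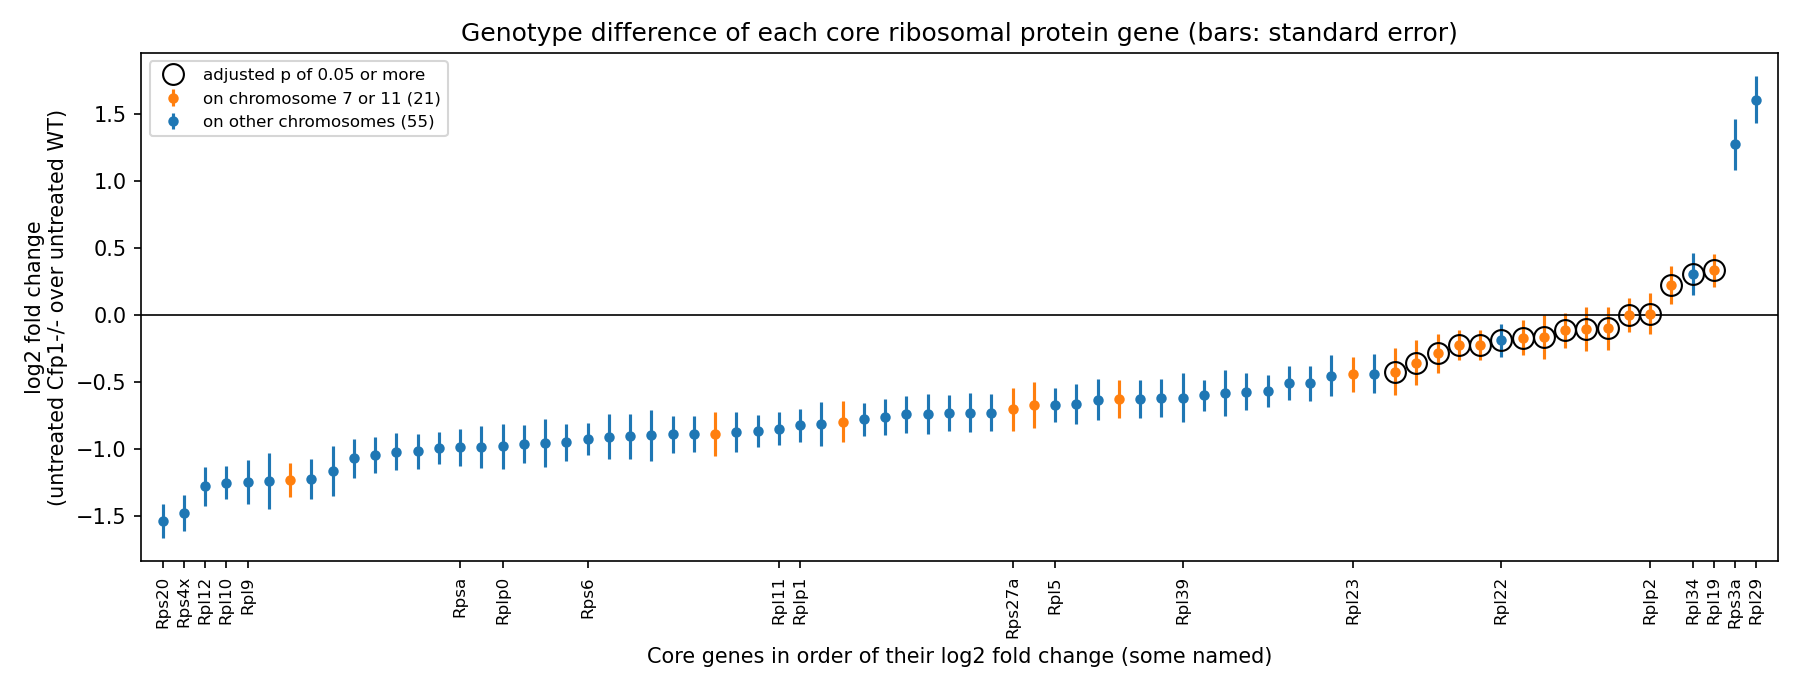
Log2 fold change of untreated Cfp1-/- over untreated WT cells (vertical axis) for each of the 76 core genes in order of its value, with some genes named, with bars of 1 standard error (n = 2 a group), orange for the 21 genes on chromosomes 7 or 11, blue for the 55 others, and circles around the 16 genes that did not pass the test. The values run from -1.54 for Rps20 to 1.61 for Rpl29, and most circled genes are orange.

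**Figure D3:**
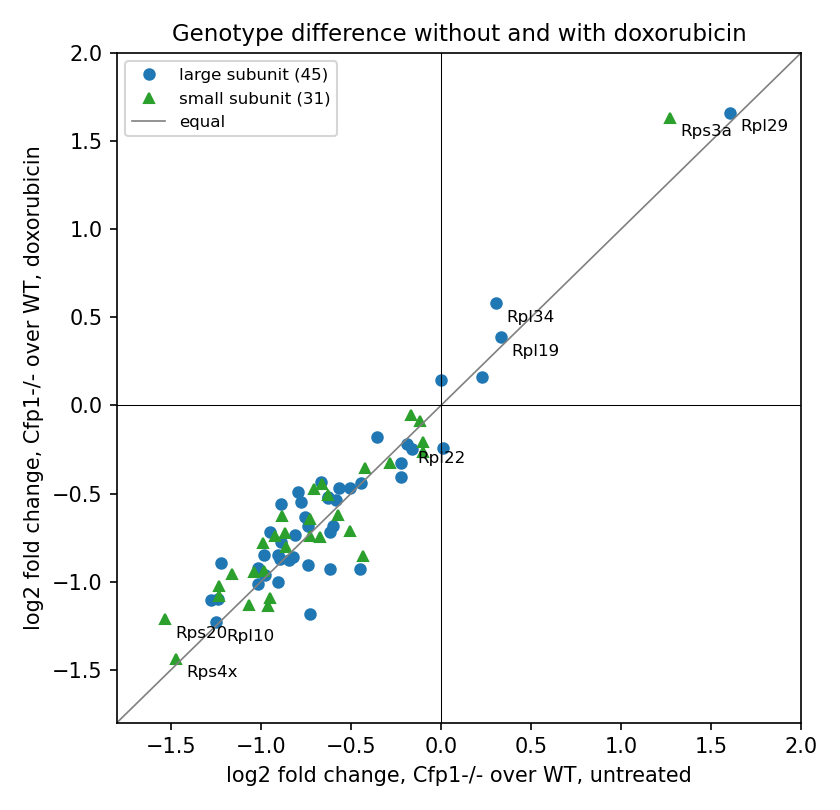
Log2 fold change of Cfp1-/- over WT in treated cells (vertical axis) against that in untreated cells (horizontal axis), 1 point for each of the 76 core genes (circles large subunit, triangles small subunit), with a line where both are equal. Most points lie at the lower left along that line, and Rpl29 and Rps3a lie alone at the upper right.

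The stalk proteins, which recruit and activate the translation GTPases, gave unlike values, and the differences between them were not tested. Rplp0, the stalk's anchor, had 22528 and 27783 normalized counts in untreated WT and 11180 and 13872 in untreated Cfp1-/- cells (log2 fold change -0.98, SE 0.166, edgeR adjusted p = 0.0023). Rplp1 had 18390 and 20077 against 10855 and 10474 (-0.82, SE 0.125, edgeR adjusted p = 0.00136). Its partner Rplp2 had 19963 and 16012 against 18349 and 17165 (0.01, SE 0.152, edgeR adjusted p = 0.969), with overlapping groups. In treated cells the log2 fold changes were -0.96, -0.86 and -0.24 for Rplp0, Rplp1 and Rplp2, and that of Rplp2 again did not pass the test.

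Proteins that bind Mdm2 were mostly lower. Of 14 such ribosomal proteins 13 were lower untreated and 12 treated, with medians of -0.86 and -0.71, beside 58 and 57 of all 76 core genes and 16.1% and 10.8% of all tested genes. Without the second runs 13 were lower treated. Rpl5, which carries the 5S ribosomal RNA, had 29771 and 32105 normalized counts in untreated WT and 17694 and 20467 in untreated Cfp1-/- cells (log2 fold change -0.67, edgeR adjusted p = 0.00405). Its partner Rpl11 had 10315 and 10488 against 5206 and 6143 (-0.85, edgeR adjusted p = 0.00105). Rpl23, a further Mdm2 binder encoded on chromosome 11, had 19709 and 18122 against 12451 and 14868 (-0.44, edgeR adjusted p = 0.026). The exception untreated was Rpl26, also on chromosome 11 and chosen here after its values were seen, at a log2 fold change of 0.00 (edgeR adjusted p = 1).

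Other members with roles of their own gave mixed values. Rpsa, the laminin receptor precursor of the small subunit, had 36388 and 40169 normalized counts in untreated WT and 17596 and 20360 in untreated Cfp1-/- cells (log2 fold change -0.98, edgeR adjusted p = 0.000925). Rps6, the substrate of the S6 kinases, had 8531 and 9026 against 4214 and 4870 (-0.92, edgeR adjusted p = 0.000675). Rpl22, which also binds mRNAs outside the ribosome, had 16757 and 17270 against 13555 and 15731 (-0.19, edgeR adjusted p = 0.264). Of the genes made as fusions, Rps27a, joined to ubiquitin, was lower untreated (8638 and 11022 against 5660 and 6180, -0.70, edgeR adjusted p = 0.00964) and did not pass the test treated (-0.47, edgeR adjusted p = 0.0584). Fau, whose product carries Rps30 behind a ubiquitin-like protein, was outside the symbol rule and was lower untreated as well (-0.50, edgeR adjusted p = 0.014).

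The 4 X-linked core genes, Rps4x, Rpl10, Rpl36a and Rpl39, were lower in both comparisons, with medians of -1.13 untreated and -1.12 treated. Beside them, 58 and 57 of all 76 core genes were lower, with medians of -0.728 and -0.715. That all 4 were lower is thus no result about the X chromosome, and the difference of the medians was not tested. Rpl36a had 12880 and 12064 normalized counts in untreated WT and 5491 and 6606 in untreated Cfp1-/- cells (log2 fold change -1.02, edgeR adjusted p = 0.000546). Rpl39, a short protein at the exit tunnel, had 2065 and 2077 against 1215 and 1438 (-0.61, edgeR adjusted p = 0.0256). In the defective run the X-linked core genes kept 0.642 counts per first-run count where other X-linked genes kept 0.0262. Without the second runs the treated differences of Rps4x, Rpl10, Rpl36a and Rpl39 were -1.42, -1.17, -1.02 and -0.88 on the log2 scale, all still past the threshold of edgeR's test. The run had also lost reads of Rps7, Rpl3 and Rps24, with log2 ratios to the first run of -2.71, -1.96 and -1.29, and without the second runs the treated differences of these 3 genes were -0.80, -0.74 and -0.50, smaller than with them (-1.09, -1.0 and -0.71).

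The core genes that were not lower lay mostly on chromosomes 7 and 11. Of the 21 core genes there, 7 were lower untreated, 5 of 14 on chromosome 7 and 2 of 7 on chromosome 11, with a median log2 fold change of -0.22. Of the 55 on other chromosomes 51 were lower, with a median of -0.85, where 16.1% of all tested genes were lower. The other tested genes of chromosomes 7 and 11 were themselves higher in Cfp1-/- cells, with medians of 0.54 and 0.52, where the medians of the other chromosomes ran from -0.23 to 0.29. Of these other genes, 52 of 1269 on chromosome 7 and 59 of 1272 on chromosome 11 were lower, and 495 and 522 were higher. The share of core genes called lower there was thus above that of their neighbours. Beside its chromosome, the core was lower almost throughout, as the core median lay below that of the other genes on 18 of the 19 chromosomes that held core genes. The exception was chromosome 3, with Rps27, Rpl34 and Rps3a. In treated cells 7 of 21 and 50 of 55 were lower, where 10.8% of all tested genes were. There 42 of the 1269 other genes of chromosome 7 and 21 of the 1272 of chromosome 11 were lower. Of the 18 core genes that were not lower untreated, 14 were on chromosomes 7 or 11, among them Rplp2, Rps19 (-0.11), Rps13 (-0.10), Rpl26 and Rpl38 (0.23), and the other 4 were Rpl22, Rpl34, Rpl29 and Rps3a. The number of chromosome copies in each line was not measured, so its part in these values was not tested.

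**Figure D4:**
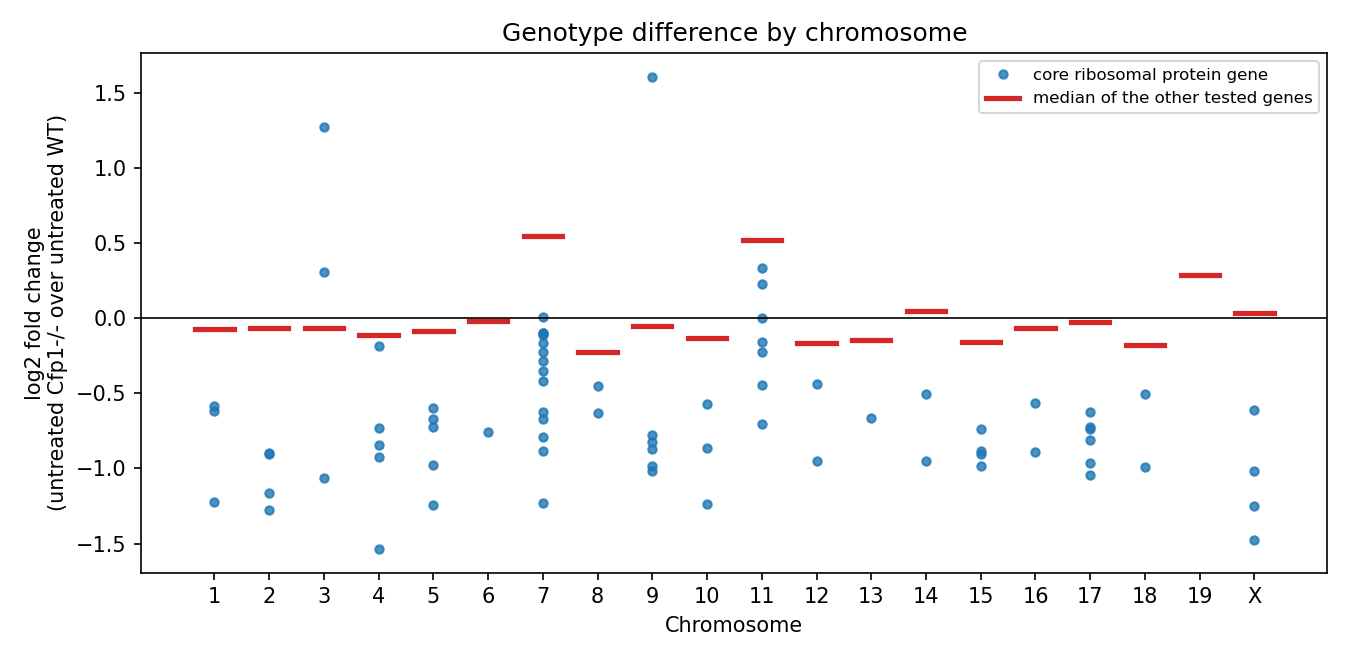
Log2 fold change of untreated Cfp1-/- over untreated WT (vertical axis) for each core gene (points) by chromosome, with the median of the other tested genes of that chromosome (bars). The bars of chromosomes 7 and 11 lie at 0.54 and 0.52 and most core genes lie below the bar of their chromosome.

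Promoters are described here because Cfp1 binds CpG dinucleotides, but its binding was not measured in these libraries and its part in these values was not tested. RefSeq promoter windows (GRCm38.p6, 250 bases before to 50 bases after the start) were found for 56 of the 76 core genes. Rps20 and Rpl29 had no entry. The windows held a median of 21.5 CpG dinucleotides, against 20 in those of the tested genes and 7 in those of all 27025 genes with a window. The median was 21 in the 42 that were lower in untreated Cfp1-/- cells and 23 in the 14 that were not. Of all 18 core genes that were not lower untreated, 14 lay on chromosomes 7 or 11. This split was thus in large part one by chromosome, here and for the runs of pyrimidines below. The 72 bases from 60 before to 12 after the start are shown for the 4 largest falls with a window (Rps4x, Rpl12, Rpl10, Rpl9) and for 4 genes that were higher in a comparison or did not differ (Rps3a, Rpl34, Rpl19, Rplp2). Of the latter, Rpl19 lies on chromosome 11 and Rplp2 on chromosome 7. Capitals mark the longest run of pyrimidines that lay wholly or partly within 20 bases of the start, cut at the end of the shown bases in Rps4x. The runs of Rpl10 (-22 to -19), Rps3a (-18 to -14), Rpl34 (-13 to -6), Rpl9 (-7 to -4) and Rpl19 (-5 to -1) lay before the listed start. A marked run is thus not by itself a TOP motif.
Rps4x, chrX:102189380-102189451, minus strand: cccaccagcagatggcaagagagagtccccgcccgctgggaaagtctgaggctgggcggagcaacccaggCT
Rpl12, chr2:32961652-32961723, plus strand: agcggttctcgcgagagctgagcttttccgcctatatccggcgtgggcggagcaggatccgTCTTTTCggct
Rpl10, chrX:74270756-74270827, plus strand: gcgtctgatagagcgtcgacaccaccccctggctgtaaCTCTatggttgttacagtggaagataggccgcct
Rpl9, chr5:65391420-65391491, minus strand: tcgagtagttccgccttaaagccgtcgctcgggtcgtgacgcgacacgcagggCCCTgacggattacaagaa
Rps3a, chr3:86142657-86142728, minus strand: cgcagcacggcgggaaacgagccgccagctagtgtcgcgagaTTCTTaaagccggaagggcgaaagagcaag
Rpl34, chr3:130730387-130730458, minus strand: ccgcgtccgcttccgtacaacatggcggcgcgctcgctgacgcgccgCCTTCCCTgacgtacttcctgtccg
Rpl19, chr11:98026650-98026721, plus strand: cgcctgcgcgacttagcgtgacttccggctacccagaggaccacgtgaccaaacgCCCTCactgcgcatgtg
Rplp2, chr7:141447591-141447662, plus strand: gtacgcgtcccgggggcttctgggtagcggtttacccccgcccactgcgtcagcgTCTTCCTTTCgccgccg

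The runs of pyrimidines were 10 bases long in Rplp2, 8 in Rpl34, 7 in Rpl12, 5 in Rps3a and Rpl19, and 4 in Rps4x, Rpl10 and Rpl9. A run of 8 or more, before, across or after the listed start, was present in 27 of the 56 windows (48.2%), against 19.7% of the windows of tested genes and 20.8% of all windows. It was present in 21 of the 42 core genes that were lower untreated (50.0%) and in 6 of the 14 that were not (42.9%). Of the motifs searched on both strands of the 300 bases, CCGGAAG, the site of ETS factors, was present in 39.3% of core windows against 15.8% of those of tested genes, CTTTCC in 46.4% against 26.3%, and AAGATGG, the core of the YY1 site, in 14.3% against 6.59%. GGGCGG, an Sp1 site, was present in 58.9% against 61.8%, CACGTG in 8.93% against 9.87%, CCAAT in 32.1% against 38.6% and TATAAA in 8.93% against 7.51%. The shorter CTTCC, which a CCGGAAG site also holds on its other strand, was present in 91.1% of core windows against 74.4%. A match is a description of the letters and not of binding.

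Paralogues and pseudogenes were followed apart from the core. Rpl7l1, a nucleolar relative of Rpl7 that acts in large-subunit assembly, fell in both genotypes after doxorubicin, from 9181 and 7897 to 3395 and 3208 normalized counts in WT (log2 fold change -1.32, edgeR adjusted p = 6.17e-05) and from 5930 and 6329 to 3015 and 2543 in Cfp1-/- cells (-1.10, edgeR adjusted p = 0.000194). It was also lower in untreated Cfp1-/- than in untreated WT cells (-0.45, edgeR adjusted p = 0.0294). Rps4y2, a retrogene relative of Rps4x, was lower untreated as well (2508 and 2636 against 1512 and 1290, -0.85, edgeR adjusted p = 0.011). Rpl3l, the striated-muscle relative of Rpl3, was nearly absent, with 7 and 5 raw counts in untreated WT and 24 and 35 in untreated Cfp1-/- replicates (2.21, SE 0.465, edgeR adjusted p = 0.00606). Rpl22l1, Rpl36al and Rpl39l did not pass the test in any comparison, nor did Rps19bp1, which had 467 to 523 normalized counts in all 8 replicates. Of the 27 tested pseudogenes none was higher and 6 were lower untreated, and 8 were lower treated. Of all tested genes 16.1% were lower and 17.9% higher untreated, and 10.8% were lower and 15.1% higher treated. The untreated count of lower pseudogenes was near that share and is no result about them. Rpl15-ps2 was the clearest, chosen after its values were seen, with 505 and 582 against 133 and 168 normalized counts (-1.82, edgeR adjusted p = 0.000296). Reads of a pseudogene and of its parent gene cannot always be told apart.

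Doxorubicin left most core genes near their untreated level. In WT cells 3 rose and 3 fell, where 48.3% of all tested genes were called, 26.5% rising and 21.8% falling, and 75 of 76 had a log2 fold change within 0.5 of 0 with standard errors of 0.112 to 0.204. The median was -0.08 against 0.06 over all tested genes. With libraries scaled by total counts it was 0.23, with 16 core genes higher and 0 lower. That scaling moved the median of all genes by 0.31, and under it 5731 of 15758 tested genes were higher and 1836 lower. The distance between the core median and that of all genes was -0.14 under both. Among those that rose, Rpl6 went from 14941 and 17605 to 20071 and 21650 normalized counts (log2 fold change 0.40, SE 0.146, edgeR adjusted p = 0.0435), and Rpl28 from 2840 and 2943 to 3560 and 3510 (0.34, edgeR adjusted p = 0.0313). Rpl3, which forms part of the peptidyl transferase centre, fell from 30339 and 36201 to 23326 and 22849 (-0.48, SE 0.166, edgeR adjusted p = 0.0368), Rpl7 from 38480 and 44897 to 28538 and 32616 (-0.40, edgeR adjusted p = 0.0476) and Rpl5 from 29771 and 32105 to 22842 and 24216 (-0.35, edgeR adjusted p = 0.0471). Genes were named only if their groups did not overlap, and those of 11585 of the 15758 tested genes did not. Each of these 5 calls lay close to the threshold. With the libraries left out in turn 0 to 3 core genes rose and 0 to 3 fell, and without the second runs of treated replicates 1, 2 rose and 5 fell.

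In Cfp1-/- cells Rpl3 alone of the 76 core genes changed after doxorubicin, where 48.8% of tested genes were called, 27.8% rising and 21.0% falling. It fell from 16227 and 18633 to 9594 and 13104 normalized counts (log2 fold change -0.58, SE 0.166, edgeR adjusted p = 0.0169). Its second run was the one that had lost reads, and without the second runs the fall was -0.39 (edgeR adjusted p = 0.0301) and a second core gene, Rpl10a, fell as well (-0.33, edgeR adjusted p = 0.0431). The fall was lost without treated replicate 1 or untreated replicate 2, when no core gene fell. The core median was -0.02, and 0.19 by total counts, against 0.01 and 0.23 over all genes. The named stalk and 5S genes had log2 fold changes in Cfp1-/- cells of 0.09 for Rplp0, 0.15 for Rplp1, 0.06 for Rplp2, -0.11 for Rpl5 and -0.04 for Rpl11, and none passed the test.

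The response to doxorubicin was not found to differ between the genotypes for any core gene. In the test of the interaction 0 of 76 core genes passed in edgeR and 0 in DESeq2, 0 had an unadjusted p under 0.05, and 0.235% of all tested genes were called, 0.114% higher and 0.121% lower. The median difference of the responses was 0.05 on the log2 scale and the differences ran from -0.48 to 0.36, with standard errors of 0.158 to 0.289, so differences of that size were not detectable with 2 replicates a group.

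Most of the genes that build ribosomes fell after doxorubicin. Of 70 tested ribosome biogenesis factors 57 fell in WT and 57 in Cfp1-/- cells after doxorubicin and 0 rose, where 21.8% and 21.0% of all tested genes fell, with medians of -0.76 and -0.60. Gnl3 (nucleostemin), a nucleolar GTPase of stem cells, had a log2 fold change of -1.71 in WT (edgeR adjusted p = 9.09e-06) and -1.09 in Cfp1-/- cells. Senp3, which removes SUMO from assembly factors, had -1.68 and -1.33, and Mphosph10, a component of the small-subunit processome, -1.34 and -1.22. All 3 passed the test in both genotypes. Of 13 genes of RNA polymerase I and its initiation factors 9 fell in WT and 7 in Cfp1-/- cells, among them Twistnb (-1.35 and -1.33) and Polr1c (-1.32 and -1.15), which encode polymerase subunits. Of 11 chaperones and importers of ribosomal proteins 7 fell in each genotype, with Ltv1 at -1.02 and -0.72 and Kpnb1 (importin beta) at -0.80 and -0.80. Without the second runs 8 and 6 of these 11 fell, and the counts of the other lists in this paragraph stayed as given.

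Translation factors gave counts of falls nearer to the share of all genes, while fewer of them rose than of all genes. Of 32 tested translation factors and other TOP mRNA genes 10 fell and 1 rose in WT, and 7 fell and 1 rose in Cfp1-/- cells, with medians of -0.24 and -0.22, where 21.8% and 21.0% of all tested genes fell and 26.5% and 27.8% rose. The Cfp1-/- share of falls was near that of all genes and is no result about the list. Without the second runs 12 and 9 fell. The falls included Eif4b (-1.33 and -1.07), a cofactor of the helicase of initiation, and Eif4a2 (-1.67 and -0.74), one form of that helicase, and the rise was that of Ccng1 (1.50 and 1.16), a cyclin that p53 induces. Of 76 mitochondrial ribosomal proteins, which serve another ribosome, 36 fell and 2 rose in WT and 30 fell and 1 rose in Cfp1-/- cells, with medians of -0.39 and -0.30. Mrps18b fell most in WT (-1.63) and Mrps6 rose (1.71 and 1.33). Without the second runs 37 fell and 4 rose in WT and 32 fell and 2 rose in Cfp1-/- cells.

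**Figure D5:**
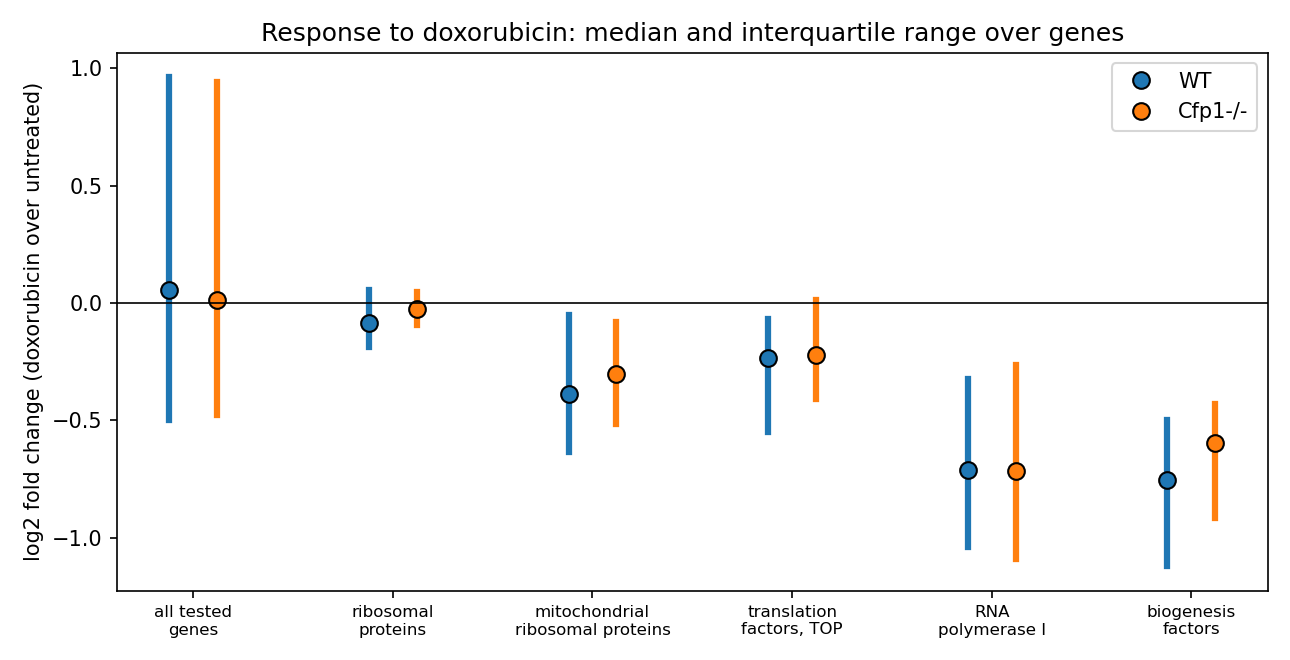
Median (points) and interquartile range over genes (bars) of the log2 fold change of doxorubicin-treated over untreated cells (vertical axis) for all tested genes and 5 gene lists, in WT and Cfp1-/- cells. The cytosolic ribosomal protein genes lie near 0 with a narrow range, at -0.08 and -0.02, and the biogenesis factors lie at -0.76 and -0.60.

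Between genotypes these lists are read against 16.1% of all tested genes lower and 17.9% higher untreated, and 10.8% lower and 15.1% higher treated. Of the 32 translation factors and TOP mRNA genes 17 were lower and 2 higher in untreated Cfp1-/- cells (median -0.47) and 13 lower and 2 higher in treated ones (-0.39), with the elongation factors Eef1b2 (-1.50 untreated, -1.29 treated) and Eef2 (-1.19 and -1.21) falling most and Eif3f, on chromosome 7, higher (0.70 and 0.51). Of the 70 biogenesis factors 19 were lower and 4 higher untreated (-0.19) and 9 lower and 5 higher treated (-0.07). Npm1 (nucleophosmin) was lower in both (-1.09 and -0.81), as was Dkc1, the X-linked pseudouridine synthase (-1.05 and -0.91, the latter -0.72 without the second runs), and Pno1, on chromosome 11, was higher in both (0.67 and 0.79). Of the 13 RNA polymerase I genes 2 were lower untreated, the initiation factors Taf1d (-1.16) and Rrn3 (-0.81), and 1 was higher, and 3 were lower treated. Of the 11 chaperones and importers 4 were lower untreated, and 1 was lower and 1 higher treated. The counts of both these short lists, and of biogenesis factors lower in treated cells, lay within 3 genes of these shares and are no result about the lists. Mitochondrial ribosomal proteins had more genes higher than lower, with 19 of 76 higher and 2 lower untreated (median 0.20) and 21 higher and 1 lower treated (0.25), led by Mrps24 (1.71 and 1.29) on chromosome 11 and Mrpl23 (1.46 and 1.43) on chromosome 7. Of 26 core genes whose introns hold small nucleolar RNAs 22 were lower in each comparison, with medians of -0.73 and -0.66. Beside them, 58 and 57 of all 76 core genes were lower, with medians of -0.73 and -0.72. In treated cells without the second runs 8 biogenesis factors were higher and 10 lower, 12 translation factors and TOP mRNA genes lower, 24 mitochondrial ribosomal proteins higher and 2 lower, and 21 genes that hold small nucleolar RNAs lower.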

How the data were processed

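RNA of 8 biological replicates, 2 in each of 4 groups, was sequenced in 16 samples. Per the study's methods and processing notes, the authors removed ribosomal RNA, prepared libraries that keep the strand, aligned reads to mm9 with STAR 2.2.1 and counted them per gene with HTSeq. This version of STAR is that of the processing notes, and the paper's methods name another. The authors deposited raw counts per technical replicate, which are not normalized, and normalized counts per biological replicate, a signal obtained by dividing the summed counts by a size factor from DESeq. Reads that match several places can be lost or misassigned by such counting, which bears on genes with many copies.

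Raw counts were summed over technical replicates and tested with edgeR 4.0.16 (R 4.3.3, quasi-likelihood test, TMM scaling, filterByExpr) over all 15758 genes that passed the filter, with Benjamini-Hochberg adjustment over all of them, and a gene was called at an adjusted p under 0.05 at any fold. The 5 comparisons were the response to doxorubicin in each genotype, their difference (interaction), and Cfp1-/- against WT untreated and treated. Library totals ran from 14880589 to 29422711 counts, and the counting error of core genes was not compared with the spread between 2 replicates. The code was tested on simulated counts of the untreated genotype comparison (15240 genes). Of 50 genes raised and 50 lowered by 1 on the log2 scale it called 24 and 17, with median fold changes of 1.02 and -0.97, and it called 10 and 8 of 50 at 0.75, with 3 false calls. The changed genes were drawn at random from all levels and shared a common spread. These counts therefore do not measure how often changes of core genes would be called. No change was simulated for the responses or the interaction. Levels of genes were compared as normalized counts per kb of exon from the annotation. Copies of each coding sequence were sought in the mouse genome with minimap2 2.31-r1302, at 90% identity or more over 80% or more of its length.

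The genes, lists and markers were chosen with earlier results of these data known. In each comparison up to 5 called core genes with the largest rise and 5 with the largest fall among those with groups apart were named, with the 5 highest and 5 lowest levels per kb, a set of genes with known roles, and up to 2 genes a direction from each list. Alternatives were DESeq2 1.42.0 and its size factors, total count scaling, no filter, a replicate block, first runs alone, leaving out second runs or single replicates, fits on the groups compared, wider member lists and the study's limits. Chosen after seeing the data were the subtraction of chromosome medians, the block without second runs, transcript length, the subset without copies and the list counts without second runs. Some genes that this rule names are not reported here.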

Additional observations from a re-analysis of the deposited data

How the results depend on the processing

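The calls between genotypes kept their direction under every alternative run, and the few calls in the responses to doxorubicin did not keep their number. Of 8702 values of single named genes under an alternative, 320 lost and 161 gained a call and 0 reversed a called direction. With n = 2 a group and the lone replicate of a reduced group assumed to vary like the others, small changes of core genes remain beyond the precision of these data.

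For the WT response, core genes higher and lower (3 and 3) became 1 and 5 with DESeq2's size factors, 1 and 6 with DESeq2's Wald test, 16 and 0 with total count scaling, and 0 and 0 at the study's limits. Of all tested genes 48.9% were called with DESeq2's size factors, 37.4% with its Wald test and 48.0% with total count scaling. The lower count was also 5 without the second runs and 1 with the compared groups alone. Leaving out each replicate gave 0 to 3 higher, 0 to 3 lower and medians of -0.17 to -0.03, and the median turned to 0.23 with total count scaling. For the Cfp1-/- response (0 and 1) total count scaling gave 5 and 0 with a median of 0.19, 2 were lower without the second runs and with all coding members, 0 at the study's limits and 0 to 2 on leaving out each replicate, with medians of -0.151 to 0.081. The median interaction ran from -0.0621, without untreated Cfp1-/- replicate 1, to 0.136. For untreated genotypes (2 higher, 58 lower) total count scaling gave 5 higher and a median of -0.54, the study's limits 1 and 2, and left-out replicates 40 to 57 lower and medians of -0.83 to -0.58, with the lowest count and the smallest median without untreated Cfp1-/- replicate 1. For treated genotypes (4 and 57) total count scaling gave a median of -0.62, the study's limits 2 and 1, and left-out replicates 2 to 3 higher, 35 to 59 lower and medians of -0.75 to -0.62. Of 15758 tested genes total count scaling called 5271 higher and 2057 lower in the Cfp1-/- response, and 3849 and 1610 between untreated genotypes. The share of counts in treated Cfp1-/- cells was 3.26% in first runs alone and 3.45% with all members. Apart from the built-in effects of scaling and of fewer samples, the cause was not tested.

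The replicate numbers were not taken as pairs, since the labels do not say what a number shares and each comparison has 2. Deviations of same-numbered replicates correlated at 0.14 to 0.451 over the 6 pairs of groups. With the replicate block the WT response had 5 core genes higher and 9 lower, where 4692 of 15758 tested genes were higher and 4115 lower. With the block and without the second runs 17 core genes were lower, where 4298 of 15766 tested genes were. The Cfp1-/- response had 2 lower under either, beside 4078 and 4168 of all tested genes. The untreated genotypes had 3 higher and 59 lower with the replicate block and 4 higher with the block and without the second runs, and the treated ones had 4 higher and 60 lower. Of all tested genes the block called 3508 higher and 3362 lower untreated, and 3237 higher and 2558 lower treated. Without the second runs it called 3697 higher untreated.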
